A study of Homo sapiens with 6 samples.

Results

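The genes described here are 10 genes of the ATF4 stress response: ATF4 itself, the transcription factors ATF3, DDIT3, CEBPB and CEBPG, and the effector genes ASNS, CHAC1, TRIB3, DDIT4 and VLDLR. They were chosen by name, with earlier results of these data known, and every probe set annotated to exactly 1 of these symbols was taken. Each gene had 1 such probe set, so 10 of the 22215 probe sets in the table, or 10 of its 11963 genes, are described. HCT116, an established human colon cancer cell line, was infected with FUGW lentivirus that carried either a short hairpin RNA (shRNA) against NFX1-91, a splice form of the zinc finger protein NFX1, or a hairpin against β-galactosidase as the control. Both groups thus carried a lentivirus and a hairpin, and cells expressed the hairpins stably. Total RNA was hybridised to Affymetrix arrays, 3 with the NFX1-91 hairpin and 3 with the control hairpin. Whether these were separate cultures or clones is not in the labels, so every p-value rests on array-to-array spread that could be purely technical.

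ATF4 is the main transcription factor of the integrated stress response. When a kinase phosphorylates the initiation factor eIF2, general translation slows while translation of the ATF4 mRNA increases, so ATF4 is known to be controlled largely at the level of its protein, which these arrays did not measure. ATF4 belongs to the basic leucine zipper (bZIP) factors, pairs with members of the C/EBP family, and binds a composite C/EBP-ATF response element in genes for amino acid supply, redox balance and cell death. Colon cancer cells are known to draw on this response when amino acids run short or proteins misfold.

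Promoter windows from RefSeq on GRCh38.p14, which run from 250 bases before to 50 bases after an annotated start, were searched on both strands for the core of that element, TGATGNAA. All 10 genes matched the RefSeq table by symbol, with 18 windows, since several have more than 1 annotated start. The core occurred in 4 of the 10 genes, against 1217 of the 27305 genes with a window, or 4.46%. Counted by window, it occurred in 4 of the 18, against 3.62% of all 35116 windows. The 4 windows are shown because they hold the letters that the stress response factors are known to recognise; the match is in capitals and each sequence reads along the strand of its gene. The CHAC1 window lies at chr15:40953221-40953520 (plus strand), that of ASNS at chr7:97872359-97872658 (minus strand), that of CEBPG at chr19:33373863-33374162 (plus strand) and that of ATF3 at chr1:212565157-212565456 (plus strand).
CHAC1: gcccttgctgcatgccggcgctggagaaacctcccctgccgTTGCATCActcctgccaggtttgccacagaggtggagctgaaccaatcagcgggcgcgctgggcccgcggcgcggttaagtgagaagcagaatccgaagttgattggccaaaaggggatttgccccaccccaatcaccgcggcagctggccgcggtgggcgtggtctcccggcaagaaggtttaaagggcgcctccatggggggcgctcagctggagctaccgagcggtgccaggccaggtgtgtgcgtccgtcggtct
ASNS: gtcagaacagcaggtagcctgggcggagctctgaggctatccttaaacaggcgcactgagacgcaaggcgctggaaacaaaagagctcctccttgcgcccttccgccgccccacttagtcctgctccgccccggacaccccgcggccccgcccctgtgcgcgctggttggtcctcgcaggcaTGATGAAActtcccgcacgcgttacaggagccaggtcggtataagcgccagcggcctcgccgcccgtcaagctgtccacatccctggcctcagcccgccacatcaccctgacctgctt
CEBPG: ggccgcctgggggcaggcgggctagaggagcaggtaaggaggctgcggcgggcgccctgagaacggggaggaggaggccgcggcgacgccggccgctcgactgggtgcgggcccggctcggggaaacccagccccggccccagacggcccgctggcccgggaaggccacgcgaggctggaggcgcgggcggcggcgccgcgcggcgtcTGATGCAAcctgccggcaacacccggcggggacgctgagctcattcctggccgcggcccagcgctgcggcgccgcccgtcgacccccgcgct
ATF3: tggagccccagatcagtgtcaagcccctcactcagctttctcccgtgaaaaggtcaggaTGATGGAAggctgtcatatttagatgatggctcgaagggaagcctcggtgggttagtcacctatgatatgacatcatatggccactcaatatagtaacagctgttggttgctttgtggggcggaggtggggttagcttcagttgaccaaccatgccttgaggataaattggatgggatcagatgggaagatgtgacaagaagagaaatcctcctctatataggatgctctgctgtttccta

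The ASNS match reads TGATGAAA and spans positions -68 to -61 from the start, and the CEBPG match reads TGATGCAA at -42 to -35. The CHAC1 match lies on the opposite strand, where it reads TGATGCAA, at -209 to -202. In ATF3 the match reads TGATGGAA at -191 to -184, and in ATF3, ASNS and CEBPG another annotated start had no match. The cAMP response element TGACGTCA was found in 0 of the 10 genes, against 2.25% of all genes with a window, and the ER stress response element in 0, against 0.0916%. As neither of these was found in the windows, no overlap between motifs was possible. A match is a description of these letters and not a site shown to be bound, and a gene without one may hold the element outside the window.

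**Figure D1:**
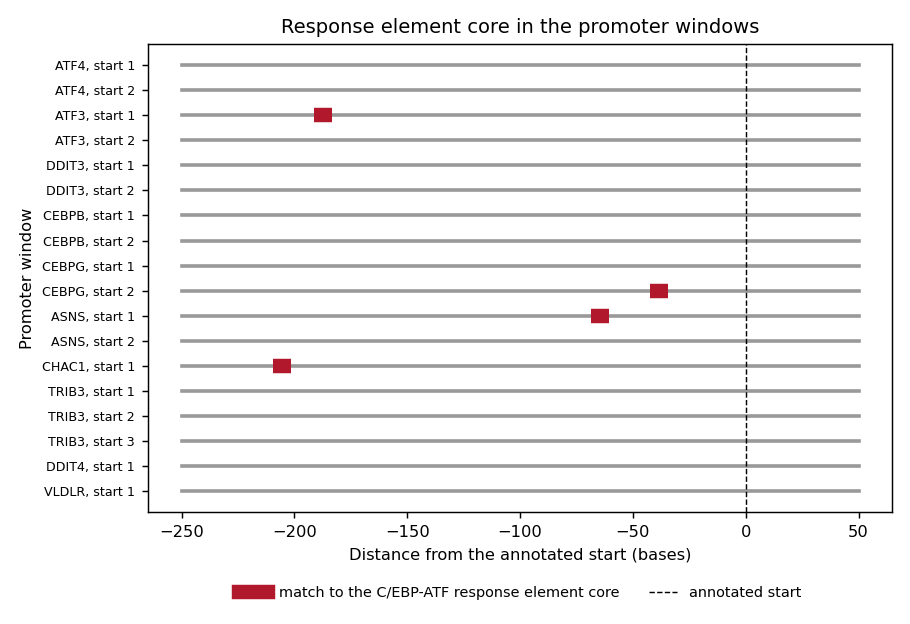
Matches to the C/EBP-ATF response element core (red blocks) along the promoter windows of the 10 genes, 1 grey line per annotated start, with distance from that start in bases on the x axis. ATF3, CEBPG, ASNS and CHAC1 each hold 1 match, and the matches of CEBPG and ASNS lie within 68 bases of the start.

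The deposited values are intensities divided by the total of their array, so a difference is relative to that total, and less RNA per cell cannot be told apart from it. They were multiplied to a mean of 500 per array (scaled signal), and groups were compared by limma over all 22215 probe sets on the log2(signal + 16) scale, with Benjamini-Hochberg adjustment. Percentages of control given below are ratios of mean scaled signals without the added 16, so they can differ from the log2 fold changes for dim genes. On that scale Pearson correlation between arrays was 0.992 to 0.995 within groups and 0.983 to 0.985 between them. The number of arrays limits the precision. The 3 NFX1 probe sets are annotated by gene, and which splice forms each of them reads was not determined. Only the dimmest was lower, with scaled signals of 8.87, 8.83 and 4.56 in NFX1-91 shRNA arrays against 16.8, 17.7 and 24.4 in control arrays (adjusted p = 0.0137). It lay at percentile 21.7 of brightness, and all its NFX1-91 shRNA values were below the added 16, so its fall rests on dim signal. The other NFX1 probe sets had log2 fold changes of -0.13 (adjusted p = 0.400) and -0.06 (adjusted p = 0.775). The summed scaled signal of 11 epithelial markers ran from 29971 to 30198 in NFX1-91 shRNA arrays and from 26197 to 26930 in control arrays. Of these, CLDN7 (log2 fold change -1.11), CDH1 (-0.50) and EPCAM (-0.15) were lower in NFX1-91 shRNA arrays at an adjusted p under 0.05, and KRT18 (0.54) and KRT8 (0.35) were higher. The other probe set of CDH1 did not pass. The sum over 8 fibroblast markers was 296 to 349 in NFX1-91 shRNA arrays and 263 to 350 in control arrays, and 4 of them lay below a signal of 16 on every array. The sum over 8 blood cell markers was 140 to 200 in NFX1-91 shRNA arrays and 134 to 151 in control arrays, with 3 of them below 16 throughout. Of these 8, HBB, a hemoglobin gene, was higher, with means of 49.9 in NFX1-91 shRNA arrays and 31.9 in control arrays (log2 fold change 0.45, adjusted p = 0.0470). Without an offset its adjusted p was 0.0573, and the other probe sets of HBB did not pass. The part of these markers in the results below was not tested.

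Of the 10 stress response genes, 8 were lower in NFX1-91 shRNA arrays at an adjusted p under 0.05, 0 were higher and 2 did not pass. Over all probe sets 3047, or 13.7%, were lower and 2656, or 12.0%, were higher; without replicate 2 of the NFX1-91 shRNA group 1669 were higher. The median log2 fold change of the 10 genes was -0.51, against 0.01 over all probe sets. For the same 8 genes every NFX1-91 shRNA array lay below every control array, a separation in that direction that 19.7% of all probe sets showed. A fall of at least 1.5-fold at an adjusted p under 0.05 was seen for 5 of the 10 genes (CHAC1, TRIB3, DDIT3, ASNS and DDIT4), against 4.86% of all probe sets. DDIT4 (-0.59) lay at that limit and fell short of it with quantile normalization, median centring, an offset of 64, array weights, or any 1 of 3 arrays left out (replicate 1 of the NFX1-91 shRNA group, replicates 1 and 3 of the control group). In the plot of signal by array the 8 genes separate cleanly, ATF3 overlaps and VLDLR lies near the bottom of the range.

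**Figure D2:**
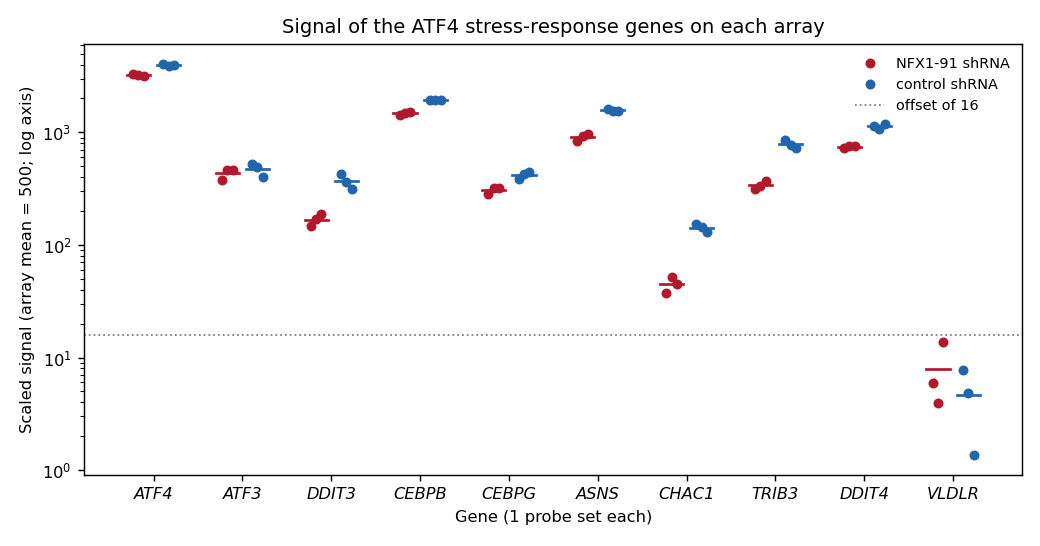
Scaled signal of each gene on each array on a log axis, with NFX1-91 shRNA arrays in red, control arrays in blue, 3 points per group and a bar at the group mean. The dotted line marks the offset of 16 added before logarithms; all VLDLR values lie below it, and the groups overlap only for ATF3 and VLDLR.

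ATF4, the factor at the head of the response, was among the brightest probe sets of the array, at percentile 97.2 of brightness. Its scaled signals were 3298, 3211 and 3183 in NFX1-91 shRNA arrays and 4087, 3897 and 3954 in control arrays. All 3 values of the NFX1-91 shRNA group lay under the lowest control value. The group means were 3231 ± 59.9 and 3979 ± 97.3 (SD, n = 3 each), so ATF4 fell to 81.2% of its control level (log2 fold change -0.30, SE 0.034, adjusted p = 0.000314). It was the smallest of the 8 falls.

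CEBPB and CEBPG encode C/EBP factors that pair with ATF4 on the response element. CEBPB had scaled signals of 1429.7, 1478 and 1532 in NFX1-91 shRNA arrays, against 1951, 1946.5 and 1938 in control arrays. The control values were nearly identical, and the groups were far apart relative to that spread: CEBPB fell to 76.1% of control (log2 fold change -0.39, SE 0.041, adjusted p = 0.000192). CEBPG, a short C/EBP protein without a known activation domain of its own, read 284, 319 and 321 in NFX1-91 shRNA arrays and 387, 429 and 445 in control arrays. It fell to 73.2% of control (log2 fold change -0.43, SE 0.080, adjusted p = 0.00411), with no overlap between groups.

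DDIT3 encodes CHOP, a bZIP factor that pairs with C/EBP proteins and is known for promoting cell death under lasting stress. Its scaled signals were 147, 169.8 and 186 in NFX1-91 shRNA arrays, against 429, 363 and 311 in control arrays. DDIT3 varied more than the other 7 genes that fell within the control group, with a coefficient of variation of 16.1%, but its highest NFX1-91 shRNA value was still well below its lowest control value. It fell to 45.6% of control (log2 fold change -1.06, SE 0.126, adjusted p = 0.000388).

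ATF3, a bZIP factor that is induced by many stresses and often represses its targets, did not pass the test. It had scaled signals of 375, 459 and 462 in NFX1-91 shRNA arrays and of 525, 497 and 401 in control arrays. The groups overlapped, since the lowest control array read below the upper NFX1-91 shRNA arrays. The log2 fold change was -0.13 (SE 0.115, 95% interval -0.39 to 0.13, adjusted p = 0.499). With 1 array left out it ran from -0.24 without replicate 3 of the control group (adjusted p = 0.155) to -0.03 without replicate 1 of the NFX1-91 shRNA group (adjusted p = 0.887). The interval includes 0 and also falls as large as that of ATF4, so the arrays do not show that ATF3 was unchanged. Its probe set, like those of ASNS, DDIT4 and VLDLR, is of the kind marked _s_at, which can match several transcripts.

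CHAC1 encodes an enzyme that degrades glutathione. Its scaled signals were 37.3, 51.7 and 45.4 in NFX1-91 shRNA arrays and 154, 144 and 131 in control arrays, with a wide gap between the groups. CHAC1 fell to 31.4% of its control level by mean signal without the offset (log2 fold change with the offset -1.39, SE 0.126, adjusted p = 9.12e-05). CHAC1 was the dimmest of the 8 genes that fell, at percentile 49.6 of brightness, and among these 8 the offset mattered most for it. Without any offset its log2 fold change was -1.68 (SE 0.160), and with an offset of 64 it was -0.93, a smaller fall than the -1.07 of TRIB3.

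TRIB3 encodes a pseudokinase that binds ATF4 and the kinase AKT and dampens both. It read 316, 334 and 371 in NFX1-91 shRNA arrays and 859.6, 774 and 729 in control arrays. TRIB3 fell to 43.2% of control (log2 fold change -1.17, SE 0.082, adjusted p = 2.74e-05), the smallest adjusted p of the 10 genes. The lowest control array was brighter than the brightest NFX1-91 shRNA array by far more than either group's spread.

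ASNS encodes asparagine synthetase, which makes asparagine from aspartate and glutamine and is a standard readout of ATF4 activity. Scaled signals were 844, 922 and 965 in NFX1-91 shRNA arrays and 1628, 1542.5 and 1542.6 in control arrays. ASNS fell to 57.9% of control (log2 fold change -0.78, SE 0.058, adjusted p = 3.53e-05). No array of either group came near the other group.

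DDIT4, also called REDD1, restrains the growth kinase complex mTORC1. Its values were 725, 761 and 756 in NFX1-91 shRNA arrays, against 1146, 1069 and 1177 in control arrays. The groups were separate, and DDIT4 fell to 66.1% of control (log2 fold change -0.59, SE 0.053, adjusted p = 9.23e-05).

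VLDLR, a lipoprotein receptor reported as a target of the eIF2 and ATF4 pathway, could not be measured reliably. Its scaled signals of 5.92, 3.91 and 13.8 in NFX1-91 shRNA arrays and 7.75, 4.87 and 1.36 in control arrays all lay below the offset, at percentile 9.36 of brightness. The groups overlapped (log2 fold change 0.20, SE 0.183, adjusted p = 0.507). A difference in VLDLR was not detectable at this signal.

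**Figure D3:**
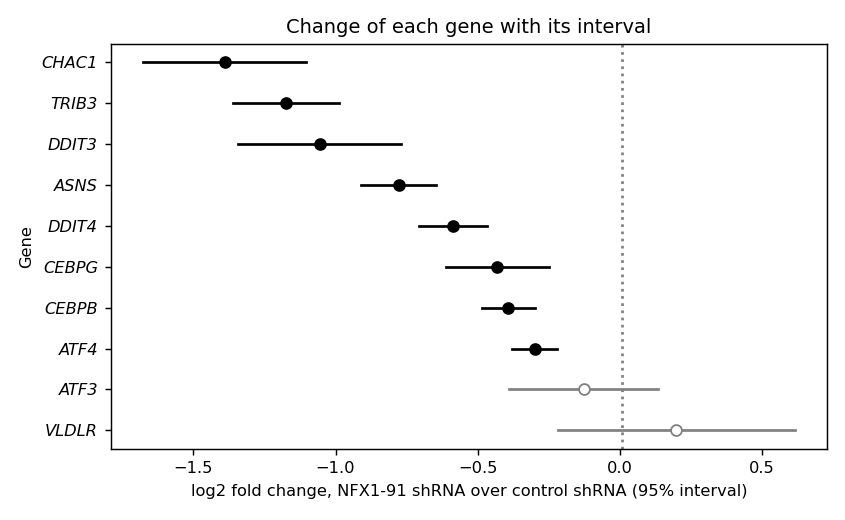
log2 fold change of each gene, NFX1-91 shRNA over control shRNA, with its 95% interval from limma. Filled points passed an adjusted p of 0.05, open grey points did not, and the dotted line is the median over all probe sets (0.01); CHAC1, TRIB3 and DDIT3 lie farthest from it and ATF4 nearest among the 8 that passed.

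Ordered by size, the falls ran CHAC1, TRIB3, DDIT3, ASNS, DDIT4, CEBPG, CEBPB and ATF4 at the offset of 16. At an offset of 64 TRIB3 came before CHAC1, and CEBPB came before CEBPG with quantile normalization or without replicate 3 of the control group. The 95% intervals of CHAC1 (-1.68 to -1.10), TRIB3 (-1.36 to -0.99) and DDIT3 (-1.34 to -0.77) overlapped each other. Every pair of neighbours among the 8 overlapped, so adjacent genes are not separated by their intervals. No test of a difference between genes was run. The interval of ATF4, -0.38 to -0.22, was separate from those of CHAC1, TRIB3, DDIT3, ASNS and DDIT4, and it overlapped those of CEBPG, CEBPB and ATF3.

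Single arrays were also compared within their groups. Replicate 1 of the NFX1-91 shRNA group held the lowest value of its group for 8 of the 10 genes (all but ATF4 and VLDLR), against 39.9% of all probe sets. Replicate 1 of the control group held the highest value for 8 of the 10 (all but DDIT4 and CEBPG), against 39.1% of all probe sets. Without replicate 1 of the NFX1-91 shRNA group 8 genes were still lower, with log2 fold changes from -1.30 for CHAC1 to -0.31 for ATF4 and a highest adjusted p of 0.0171, that of CEBPG. Leaving out each of the 6 arrays in turn kept 8 genes lower every time, with log2 fold changes of -1.47 to -1.30 for CHAC1, -1.17 to -0.94 for DDIT3 and -0.31 to -0.28 for ATF4.

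The genes around the response were described with 8 lists, which hold 147 different genes, 130 of them measured; each gene was read by its brightest probe set. For comparison, 16.6% of all 11963 genes were lower and 13.4% were higher. In the plot of list members the stress response genes have the lowest median.

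**Figure D4:**
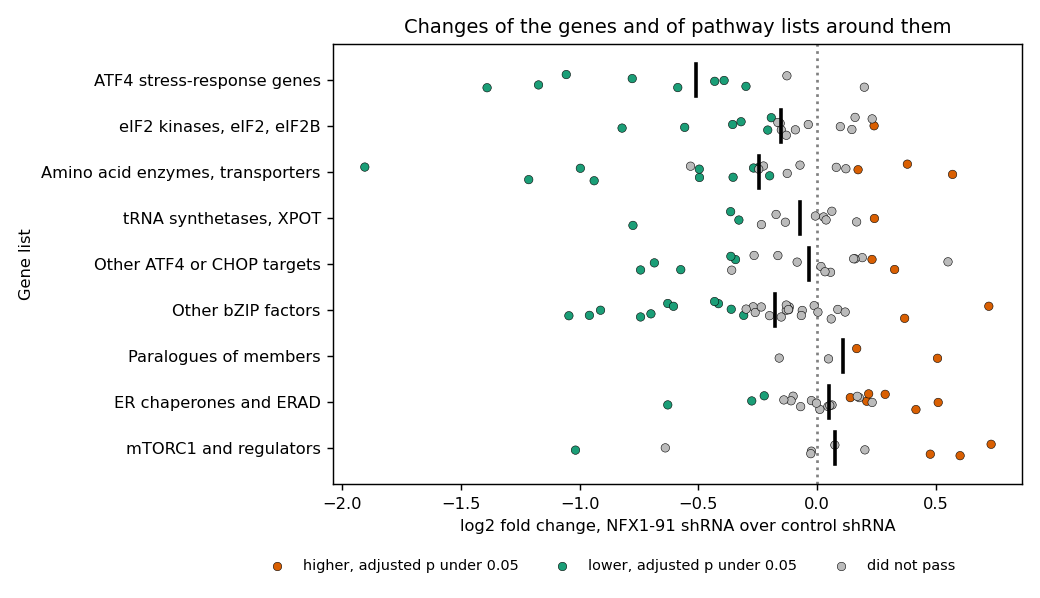
log2 fold change, NFX1-91 shRNA over control shRNA, of the 10 genes (top) and of the measured genes of 8 lists, with lower genes in green, higher genes in orange, genes that did not pass in grey and a bar at each median. The median is -0.51 for the 10 genes, -0.25 for amino acid enzymes and transporters and 0.05 for the list of mostly ER chaperones and degradation genes.

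Upstream of ATF4, among 17 measured eIF2 kinases, eIF2 and eIF2B subunits and regulators, 6 were lower, 1 was higher and 10 did not pass (median log2 fold change -0.15). EIF2AK1, the heme-regulated eIF2 kinase HRI, averaged 938 ± 15.0 in NFX1-91 shRNA arrays and 1669 ± 38.7 in control arrays (log2 fold change -0.82, SE 0.042, adjusted p = 6.76e-06). DELE1, a mitochondrial protein known to activate HRI, fell by 0.56 on the log2 scale, and GCN1, which helps to activate the kinase GCN2, by 0.36. EIF2S1, the phosphorylated subunit of eIF2, rose by 0.24. The other probe set of DELE1 did not pass. Another probe set was also lower for EIF2AK1 and for GCN1, and another was also higher for EIF2S1, whose remaining probe set did not pass. PERK, encoded by EIF2AK3 and named after its values were seen as the eIF2 kinase of the endoplasmic reticulum (ER), averaged 168 ± 0.561 in NFX1-91 shRNA arrays and 213 ± 10.5 in control arrays (log2 fold change -0.32, adjusted p = 0.0162). The count of lower genes was 3 without replicate 2 of the NFX1-91 shRNA group and 3 with shared (_s_at and _x_at) probe sets left out. The count of higher genes was 2 without replicate 1 of the control group.

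Of 20 measured amino acid enzymes and transporters known as ATF4 targets, 10 were lower, 3 were higher and 7 did not pass (median log2 fold change -0.25). The leucine transporter subunits SLC7A5 and SLC3A2 fell by 1.90 and 0.94 on the log2 scale. The glutamine transporter SLC1A5 averaged 488 ± 25.6 in NFX1-91 shRNA arrays and 989.8 ± 68.0 in control arrays (adjusted p = 2.29e-05). GOT1, the cytosolic aspartate aminotransferase, rose by 0.57, with scaled signals of 1754 ± 22.1 in NFX1-91 shRNA arrays and 1175 ± 13.4 in control arrays. The count of lower genes was 6 without replicate 2 of the NFX1-91 shRNA group and 5 with shared probe sets left out.

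Among 12 measured genes for tRNA charging and export, 3 were lower and 1 was higher, with a median of -0.07. Alanyl-tRNA synthetase AARS1 fell by 0.78, the tRNA exporter XPOT by 0.36 and CARS1 by 0.33, while SARS1 rose by 0.24. The counts were small enough to shift with the setting, to 5 lower with an offset of 1 and to 2 higher without replicate 3 of the NFX1-91 shRNA group.

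Of 18 other targets of ATF4 or CHOP, 5 were lower and 2 higher (median -0.03). The bZIP factor ATF5, which is controlled by eIF2 in the way ATF4 is, fell by 0.74, the stress cytokine GDF15 by 0.57 and the growth arrest gene GADD45A by 0.34. The autophagy genes SQSTM1 and MAP1LC3B rose by 0.23 and 0.33. The other probe set of GDF15 and that of SQSTM1 did not pass. A further probe set of ATF5 was also lower and its remaining probe set did not pass. The other probe set of MAP1LC3B was also higher. With shared probe sets left out 1 gene was lower and 0 were higher, and without replicate 1 of the control group 4 were higher.

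Other bZIP factors, which can pair with ATF4, CHOP or C/EBP proteins or are related to them, had 11 of 32 lower and 2 higher (median -0.18). The largest fall was that of the AP-1 subunit JUND, with scaled signals of 1212 ± 18.8 in NFX1-91 shRNA arrays and 2518 ± 80.8 in control arrays (log2 fold change -1.05, SE 0.041, adjusted p = 2.46e-06). The AP-1 subunit FOSL1 fell by 0.96 and XBP1, the factor of the IRE1 branch of the unfolded protein response, by 0.63. FOSB was dim and rose by 0.72. The count of lower genes was 4 with shared probe sets left out, and 1 gene was higher when any of the 6 arrays was left out.

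A list of mostly chaperones and degradation genes of the ER, tied to the IRE1 and ATF6 branches, showed 6 of 22 higher and 3 lower (median 0.05). It also held XBP1, the IRE1 gene ERN1 and protein transport genes such as SEC61B. DNAJB9 rose by 0.51, HYOU1 by 0.42 and the chaperone HSPA5, also called BiP, by 0.21, and XBP1 was the largest fall. The other probe set of DNAJB9 did not pass. Leaving out replicate 2 of the NFX1-91 shRNA group or replicate 3 of the control group left 1 gene lower, and 3 were higher with shared probe sets left out.

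Paralogues of the effector genes that passed the test were higher in NFX1-91 shRNA arrays. ASNSD1, a relative of ASNS, averaged 1059.5 ± 3.23 in NFX1-91 shRNA arrays and 742 ± 52.4 in control arrays (log2 fold change 0.51, SE 0.059, adjusted p = 0.000334), and TRIB1, a relative of TRIB3, rose by 0.17 (adjusted p = 0.0112). Of 4 paralogues measured 2 were higher and 0 lower; without replicate 2 of either group 1 was higher.

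Of 9 measured genes of or around mTORC1, the complex that DDIT4 restrains, 3 were higher and 1 was lower (median 0.08). MLST8, a subunit of mTORC1, fell by 1.02, while the S6 kinase gene RPS6KB1 rose by 0.73, TSC1 by 0.60 and the inhibitor DEPTOR by 0.48. Without replicate 1 of the control group 2 genes were lower.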

How the data were processed

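Per the labels' protocols, biotinylated cRNA from total RNA was hybridised to Affymetrix arrays, 3 per group. The deposited table holds linear intensity values for 22215 probe sets, and each column sums to 1; the sources used here give neither the authors' probe summary nor their background correction or scaling. On each array 397 to 451 values repeat 1 low value. Arrays were multiplied to a mean of 500 and log2(signal + 16) was taken, without further normalization.

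The platform annotation named 1 gene for 19064 probe sets, several for 1043 and none for 2108; 19052 matched RefSeq by gene identifier and 12 did not. Samples were grouped by title. limma 3.58.1 in R 4.3.3 (lmFit, eBayes with a trend, unpaired, two-sided) was fitted to all probe sets, with Benjamini-Hochberg adjustment and a threshold of 0.05. It was also run on simulated data with far fewer changed probe sets than were called here, as a check of the code only. Figures used Python 3.11.15 and matplotlib 3.10.9. Genes and lists were chosen with earlier results of these data known, and lists were only counted. In each list, up to 4 called genes with the smallest adjusted p and the largest change in each direction were named, or all where 3 or fewer were called; PERK was added. Alternatives covered normalization, offset, a filter on dim probe sets, variance prior, array weights, a replicate block, probe set choice, threshold and left-out arrays.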

Additional observations from a re-analysis of the deposited data

How the results depend on the processing

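For the 8 stress response genes that fell, direction and call held in 155 of 158 values from 20 alternatives. The exceptions were ATF4 (-0.30), CEBPB (-0.39) and CEBPG (-0.43), which do not reach a 1.5-fold change, so that setting counted 5 lower genes. The highest adjusted p of the 8 was 0.0257, for CEBPG without replicate 2 of the control group. Adjusted p ran from 0.155 to 0.887 for ATF3 and from 0.322 to 0.932 for VLDLR, whose dim signal limits it.

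Replicate numbers did not pair the arrays: same-numbered arrays had correlations of -0.0584, 0.0869 and -0.0884 between their deviations from the group means, and 2 of 6 arrays correlated best with their own number. With the replicate block 2265 probe sets were higher and 2649 lower, 8 stress response genes were lower, and 1 bZIP factor was higher in place of 2.

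Over all probe sets, 1760 were higher with 1 probe set per gene and 1535 at an adjusted p under 0.01. With shared probe sets left out 1165 were higher and 1510 lower, and at 1.5-fold 641 and 1079; these settings test fewer probe sets or are stricter. Leaving out 1 array gave 1669 to 2761 higher and 2187 to 3201 lower. Median centring gave 2976 higher and 2696 lower, so the excess of lower calls depends on the scaling.

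List counts moved by over 1.5 times as follows, and the cause was not tested except where a setting is stricter or tests fewer probe sets. At 1.5-fold, 1 upstream gene was lower and 0 higher, 4 and 0 amino acid genes, 1 and 0 tRNA genes, 2 and 0 other targets, 7 and 1 bZIP factors, and 1 and 0 ER genes, with 0 paralogues higher. At an adjusted p under 0.01, 3 upstream genes, 6 amino acid genes and 1 ER gene were lower, and 0 bZIP factors and 1 paralogue were higher. With shared probe sets left out, 3 upstream genes, 5 amino acid genes, 1 other target, 4 bZIP factors and 0 mTORC1 genes were lower, and 0 other targets and 3 ER genes were higher. Of the tRNA genes, 2 were higher with quantile normalization, median centring, dim probe sets left out, array weights or 1 probe set per gene, and 0 without a variance trend. Their lower count was 5 with an offset of 1, no offset, dim probe sets left out, a robust prior or 1 probe set per gene. Without a variance trend 1 paralogue was higher, and 3 ER genes were higher and 1 lower. Array weights gave 2 lower mTORC1 genes, and 1 bZIP factor was higher with dim probe sets left out. Leaving out 1 array gave 1 to 2 higher and 3 to 6 lower upstream genes, 6 to 10 lower amino acid genes, 1 to 2 higher tRNA genes, 2 to 4 higher other targets, 1 higher bZIP factor, 1 to 2 higher paralogues, 1 to 4 lower ER genes and 1 to 2 lower mTORC1 genes.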
